A study of Mus musculus with 9 samples.

Results

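The genes described here are the C-type lectin receptors of mouse splenic type-2 conventional dendritic cells (cDC2s). The 8 members were taken by name, as the rows Clec4a1, Clec4a2, Clec4a3, Clec4a4, Clec7a, Clec9a, Clec10a and Clec12a of a table of 14209 genes. Their rule uses no measured value, but they were chosen with earlier results of these data known. RNA was sequenced from spleen cDC2s of C57BL/6 mice in 9 libraries, 3 for each of 3 genotypes. The CD97-deficient group lacked the adhesion G protein-coupled receptor CD97 (gene Adgre5, listed in the table as Cd97), the Gα13-deficient group carried CD11c-Cre with floxed Gna13, and the WT group was wild type. CD11c-Cre acts in cells that express CD11c, which include dendritic cells and some macrophages. The genotype label of the Gα13-deficient samples names Adgre5-/- beside CD11c-Cre Gna13 fl/fl, whereas the series design lists these as separate genotypes. Age, sex and whether the CD97-deficient or WT mice carried Cre are not given in the sources used here, nor is it stated that each library came from a different mouse, so the p-values measure the spread between libraries.

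C-type lectin receptors are surface proteins with a carbohydrate-recognition fold, through which dendritic cells bind microbial sugars, self glycans and debris of dead cells. Their short cytoplasmic tails, or the adaptors they pair with, decide the signal: an immunoreceptor tyrosine-based inhibitory motif (ITIM) recruits phosphatases such as SHP-1, and a hemITAM, the single-tyrosine form of an activation motif, recruits the kinase Syk and, through Card9, activates NF-κB. The DCIR receptors encoded by the Clec4a genes are a mouse family expanded from 1 human gene. Clec4a4 encodes DCIR2, the antigen of the 33D1 antibody, long used to mark the CD8-negative dendritic cells of the mouse spleen.

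The first 60 coding bases of each member are shown because they encode the cytoplasmic tail that sorts these receptors into inhibitory and activating ones. They come from the mouse GENCODE release 21 transcripts (GRCm38), run from the start codon in the 5′ to 3′ direction, and have in capitals the 6 codons around the tyrosine.
Clec4a2: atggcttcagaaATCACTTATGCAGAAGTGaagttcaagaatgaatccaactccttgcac
Clec4a4: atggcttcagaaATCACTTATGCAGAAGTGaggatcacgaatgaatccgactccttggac
Clec12a: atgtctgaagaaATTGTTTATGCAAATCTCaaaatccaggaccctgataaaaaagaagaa
Clec4a1: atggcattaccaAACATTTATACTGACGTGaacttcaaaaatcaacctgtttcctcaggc
Clec4a3: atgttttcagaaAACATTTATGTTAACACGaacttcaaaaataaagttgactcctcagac
Clec7a: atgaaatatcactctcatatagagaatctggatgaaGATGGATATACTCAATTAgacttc
Clec9a: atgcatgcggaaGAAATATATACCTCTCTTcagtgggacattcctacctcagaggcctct
Clec10a: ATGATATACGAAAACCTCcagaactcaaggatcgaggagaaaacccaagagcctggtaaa

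Translated and searched over the first 30 residues, the tails of Clec4a2, Clec4a4 and Clec12a held an ITIM, and those of Clec4a1 and Clec4a3 did not. The tails of Clec7a, Clec9a, Clec10a and Clec12a held a tyrosine followed by a leucine at the third place after it, in Clec7a at residue 15. Of the 4 residues before that tyrosine 3 were acidic in Clec7a, 2 in Clec9a and 2 in Clec12a. The tyrosine of Clec10a is residue 3, so fewer than 4 residues precede it, and 0 of them are acidic. Acidic residues at this place are a feature of hemITAMs. Clec4a2 and Clec4a4 shared 55 of these 60 bases, against 38 to 43 in the other pairs of Clec4a genes. Over the aligned coding bases Clec4a2 and Clec4a4 were 86.7% identical, and 15.7% of the 50-base windows of Clec4a4 exons also occurred in Clec4a2 exons. No 50-base window of Clec4a1, Clec4a3 or Clec7a occurred in another gene, whereas 9.02% of those of Clec10a did, nearly all in its neighbour Mgl2. Reads of Clec4a2, Clec4a4 and Clec10a are to that extent uncertain in their assignment.

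All members but Clec10a lie on chromosome 6 of the mm10 build, in separate groups. The Clec4a genes run on the plus strand in the order Clec4a1 (chr6:122921848-122934619), Clec4a3 (chr6:122952515-122969875), Clec4a4 (chr6:122990367-123024105) and Clec4a2 (chr6:123106428-123143999), a span of 222152 bases that also holds Clec4b1. Clec12a (chr6:129342691-129365303, plus strand), Clec9a (chr6:129408862-129424763, plus strand) and Clec7a (chr6:129461591-129472779, minus strand) lie within 130089 bases, together with Clec1b and Clec1a. Clec9a shares 184 exonic bases with Clec1b on the same strand. GENCODE classes Clec7a as a polymorphic pseudogene and the other members as protein coding. Clec10a lies on the plus strand at chr11:70156197-70170834.

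Libraries held 5679946 to 13904646 counts, and 12043 genes, all 8 members among them, passed the filter on low counts. Levels are given as CPM, the counts scaled to library size, with library sizes adjusted by the trimmed mean of M-values (TMM). Gna13 had 91.7 to 114 CPM in Gα13-deficient libraries, against 186 to 228 CPM in WT libraries (log2 fold change -1.09 ± 0.11 (SE), adjusted p = 6.84e-05). Cd97 had 438 to 840 CPM in CD97-deficient libraries, 1016 to 1224 CPM in Gα13-deficient libraries and 899 to 1506 CPM in WT libraries, and its difference between CD97-deficient and WT libraries did not pass (log2 fold change -0.89 ± 0.28, adjusted p = 0.105). Counts over a whole gene include reads outside a deleted part, so these levels check the labels only in part. Transcripts of Itgax (CD11c) averaged 1411, 1854 and 1468 CPM, and those of Sirpa 864, 773 and 901 CPM, in CD97-deficient, Gα13-deficient and WT libraries, so both of these cDC2 markers were present. Of 13 listed cDC2 markers, all tested, 0 passed in CD97-deficient against WT libraries (6 at an unadjusted p of 0.05, 3 in DESeq2), and 11 had a negative log2 fold change. Over all tested genes 8.53% passed in edgeR there, and 24.5% at an unadjusted p of 0.05. In Gα13-deficient against WT libraries, where 11% of all tested genes passed, Itgax and Itgam rose (log2 fold changes 0.34 and 0.42). Cd4, Irf4, Esam and Relb fell there (-0.66, -0.37, -0.53 and -0.43). RNA of the sex-linked genes followed a female pattern in all 3 CD97-deficient libraries and in replicate 2 of the Gα13-deficient and of the WT group, and a male pattern in the other 4 libraries.

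**Figure D1:**
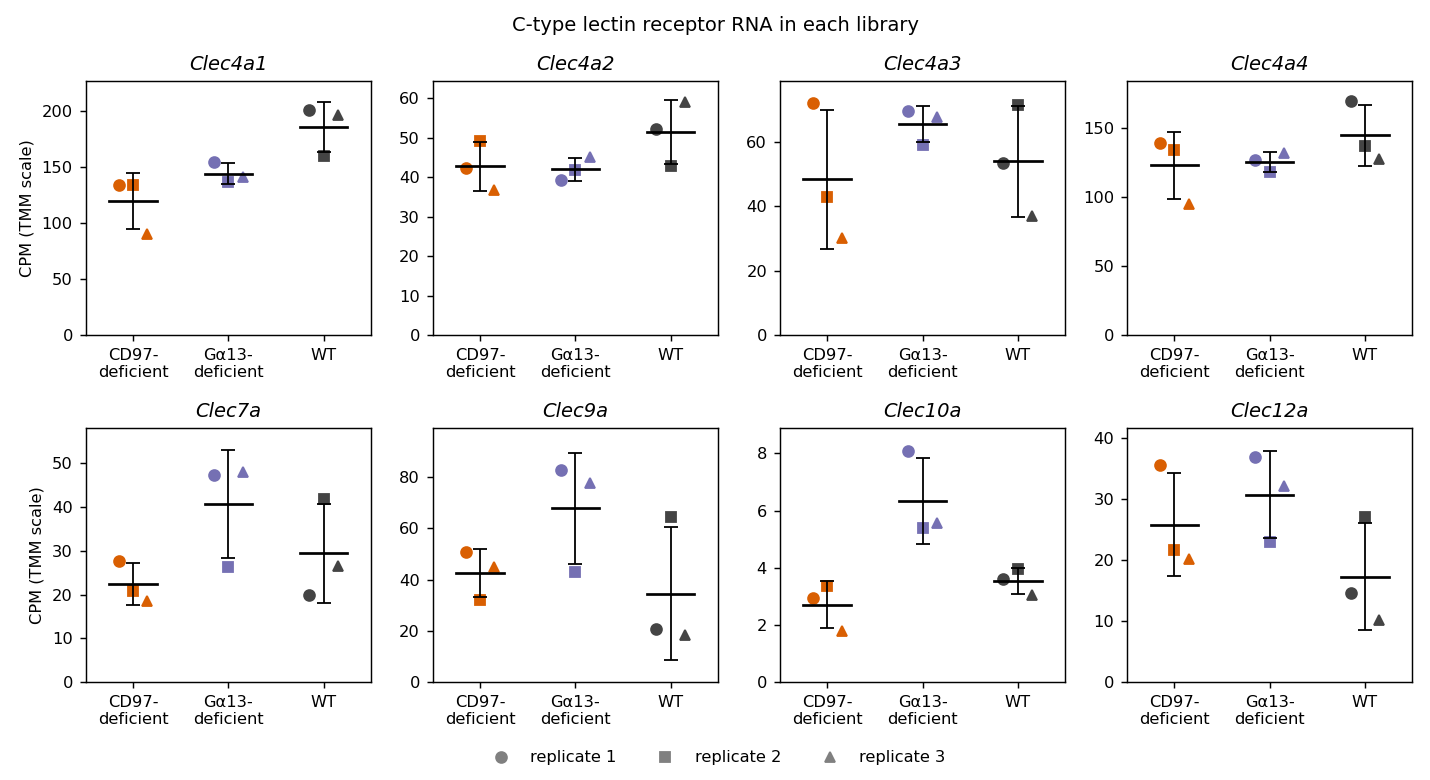
Level of each receptor in every library, as TMM-scaled CPM on an axis that starts at 0. Symbols are replicates, bars the mean and whiskers the SD of 3 libraries. Clec4a1 was lower in all CD97-deficient libraries (90.6 to 134 CPM) than in any WT library (160 to 201 CPM), and Clec10a was higher in all Gα13-deficient libraries (5.39 to 8.06 CPM) than in any other library.

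The Clec4a family made up most of the receptor RNA. It contributed 76.9%, 82.2% and 74.8% of the members' summed CPM in CD97-deficient libraries, 69.0%, 78.4% and 70.3% in Gα13-deficient libraries, and 89%, 75.0% and 87.8% in WT libraries. Compared per kilobase of merged exon, the order of the top members was the same in every library: Clec4a4 was highest, then Clec4a1, then Clec4a3, with ranges that did not overlap within any genotype. Clec4a4 averaged 159 ± 31.2, 162 ± 9.18 and 187 ± 28.8 CPM per kb, and Clec4a1 76.8 ± 16.2, 92.6 ± 5.96 and 119 ± 14.4 CPM per kb, in CD97-deficient, Gα13-deficient and WT libraries (SD, n = 3 each). The WT level of Clec4a4 stood at percentile 99.1 of 11904 tested genes with a known length.

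Clec4a3, which encodes DCIR3, averaged 36.4 ± 16.3, 49.3 ± 4.198 and 40.7 ± 13.05 CPM per kb in CD97-deficient, Gα13-deficient and WT libraries (SD, n = 3 each). Below it, Clec4a2, Clec7a and Clec9a exchanged places between genotypes. In CD97-deficient libraries Clec4a2 (12.6 to 16.8 CPM per kb) lay above Clec7a (7.03 to 10.5 CPM per kb). All their other ranges within a genotype overlapped. Library by library, Clec9a lay above Clec7a in 3 of 3 CD97-deficient and in 3 of 3 Gα13-deficient libraries. In WT libraries Clec7a lay above Clec9a in 2 of 3. The other pairs with overlapping ranges had no order that held in every library of a genotype. Clec12a came next at 4.66 ± 1.53, 5.55 ± 1.28 and 3.13 ± 1.58 CPM per kb. Clec10a was last at 0.933 ± 0.283, 2.19 ± 0.516 and 1.22 ± 0.154 CPM per kb (SD, n = 3 each, in the same order of genotypes), at percentile 15.9 of genes in WT libraries. The range of Clec12a overlapped neither neighbour in any genotype.

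**Figure D2:**
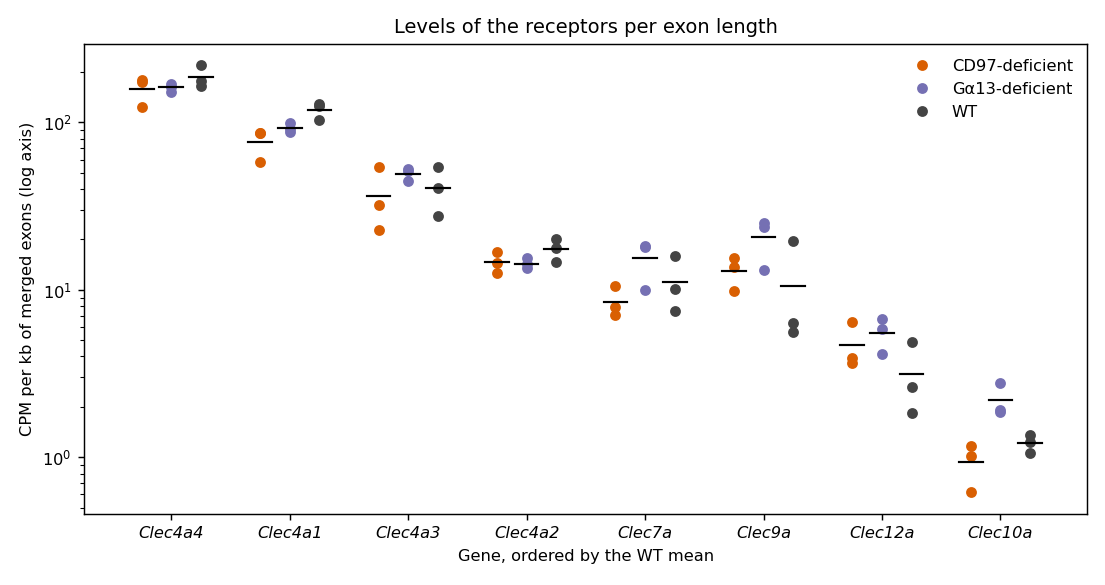
CPM per kb of merged exon length for each receptor on a log axis, ordered by the WT mean. Points are libraries and bars are group means. Clec4a4, Clec4a1 and Clec4a3 lead in each genotype, and Clec10a, with WT mean 1.22 CPM per kb, is lowest in each.

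The members also differed in how much they varied between libraries. Clec4a2 was the steadiest, with its highest library 1.61-fold above its lowest, followed by Clec4a4 at 1.78-fold and Clec4a1 at 2.22-fold. Clec9a and Clec10a both spanned 4.51-fold, and Clec12a 3.62-fold. The spread within WT libraries was widest for Clec9a, with an SD of 0.99 on the log2 CPM scale, against 0.18 for Clec4a1.

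The first comparison asks how loss of CD97 changed these receptors relative to WT cells. Clec4a1 fell, and no other member passed the test. By edgeR's quasi-likelihood test, with Benjamini-Hochberg adjustment over all genes, 1 of 8 members passed an adjusted p of 0.05, where 8.53% of all tested genes did. The same member alone passed an unadjusted p of 0.05, where 24.5% of tested genes did. The median log2 fold change of the members was -0.25, against -0.003 for all tested genes, and 2 members had a positive one. CD97-deficient replicate 3 was the lowest of the 9 libraries for every member except Clec9a and Clec12a. The members summed to 338 CPM in it, against 506 and 439 CPM in replicates 1 and 2, so the shift rests in part on this library. The CD97-deficient libraries all had the female sex-linked pattern, as did only replicate 2 of the WT group. Genotype and sex pattern thus coincide in part in this comparison, and fits without WT replicate 2 cannot separate them.

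Clec4a1 encodes DCIR4, a DCIR receptor without an ITIM in the tail shown above. It had 134, 134 and 90.6 CPM in CD97-deficient libraries, against 201, 160 and 197 CPM in WT libraries. The groups did not overlap, which held for 28.2% of all tested genes and for no other member, and CD97-deficient replicate 3 was the lowest library. The log2 fold change was -0.64 ± 0.14 (SE, 95% interval -0.94 to -0.33, edgeR adjusted p = 0.0167). Over the 9 fits that each left out 1 library it ran from -0.73 to -0.47, and it passed in 7 of them. In bulk RNA, fewer cells of a type and less RNA per cell cannot be told apart. Without WT replicate 1 it was -0.58 (adjusted p = 0.0787), without WT replicate 3 -0.60 (adjusted p = 0.0533), with the sex-linked pattern as a covariate -0.49 (adjusted p = 0.173), and with the mean log2 CPM of the cDC1 markers as a covariate, a fit added after the data were seen, -0.48 (adjusted p = 0.0911).

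The ITIM-bearing members gave no call. Clec4a4 had 140, 134 and 95.3 CPM in CD97-deficient libraries, against 170, 137 and 128 CPM in WT libraries, with overlapping groups (log2 fold change -0.24 ± 0.14, 95% interval -0.54 to 0.07, edgeR adjusted p = 0.330). Clec4a2, which encodes DCIR1, had 42.4, 49.2 and 36.8 CPM in CD97-deficient libraries, against 52.3, 42.9 and 59.1 CPM in WT libraries (log2 fold change -0.27 ± 0.14, 95% interval -0.56 to 0.03, edgeR adjusted p = 0.250). The intervals of both include 0 and the estimate of Clec4a1 lies outside them. The difference between these paralogs' changes was not tested.

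Clec12a encodes MICL, an inhibitory receptor that binds uric acid crystals. It had 35.5, 21.7 and 20.1 CPM in CD97-deficient libraries, against 14.6, 27.0 and 10.2 CPM in WT libraries. WT replicate 2 lay above CD97-deficient replicates 2 and 3, so the groups overlapped (log2 fold change 0.57 ± 0.37, 95% interval -0.28 to 1.41, edgeR adjusted p = 0.391). Without WT replicate 2 the log2 fold change of Clec12a was 1.04 and passed (adjusted p = 0.0474). That fit sets CD97-deficient libraries, all of female sex-linked pattern, against WT libraries of male pattern. Genotype and sex cannot be told apart in it.

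Clec4a3 had 72.2, 42.8 and 30.1 CPM in CD97-deficient libraries, against 53.6, 71.5 and 36.9 CPM in WT libraries, with each group spread over most of the other's range. Clec7a encodes Dectin-1, the β-glucan receptor of fungal cell walls that signals through Syk and Card9. It had 27.8, 20.95 and 18.5 CPM in CD97-deficient libraries, against 19.9, 41.9 and 26.7 CPM in WT libraries. Neither passed: log2 fold changes were -0.16 ± 0.35 for Clec4a3 (95% interval -0.99 to 0.66, edgeR adjusted p = 0.817) and -0.39 ± 0.32 for Clec7a (95% interval -1.12 to 0.34, edgeR adjusted p = 0.506). Clec10a, which encodes the galactose-type lectin MGL1, had 2.96, 3.37 and 1.79 CPM in CD97-deficient libraries, against 3.60, 3.94 and 3.06 CPM in WT libraries, from 16 to 33 counts a library (log2 fold change -0.40 ± 0.34, edgeR adjusted p = 0.495).

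Clec9a, which encodes DNGR-1, had 50.8, 32.2 and 44.8 CPM in CD97-deficient libraries, against 20.8, 64.6 and 18.3 CPM in WT libraries. All 3 CD97-deficient libraries lay between WT replicate 2 and the other WT libraries (log2 fold change 0.30 ± 0.54, 95% interval -1.01 to 1.61, edgeR adjusted p = 0.780).

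The second comparison asks how deletion of Gna13 with CD11c-Cre changed the receptors relative to WT cells. By edgeR's quasi-likelihood test 0 of 8 members passed an adjusted p of 0.05, where 11% of all tested genes did. At an unadjusted p of 0.05, 2 members passed, Clec4a1 and Clec10a, where 25.8% of tested genes did, and DESeq2 called 1, Clec12a. The members' median log2 fold change was 0.38, against -0.008 for all tested genes, and 5 members had a positive one. The groups did not overlap for Clec4a1 (lower) and Clec10a (higher), that is for 2 of 8 members, where 29.6% of all tested genes had groups that did not overlap.

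Clec4a1 had 155, 137 and 141 CPM in Gα13-deficient libraries, against 201, 160 and 197 CPM in WT libraries, so every Gα13-deficient library was below every WT library. The log2 fold change was -0.36 ± 0.14 (SE, 95% interval -0.67 to -0.06, edgeR adjusted p = 0.120). Same-numbered libraries of these genotypes deviated weakly together (r = 0.11 to 0.18) and also had the same sex-linked pattern. In an alternative edgeR fit with the replicate number as a block, the log2 fold change stayed at -0.36 and passed (adjusted p = 0.0346). It also passed when CD97-deficient replicate 3 was left out of the shared estimate of spread (-0.36, adjusted p = 0.0346).

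Clec10a had 8.06, 5.39 and 5.57 CPM in Gα13-deficient libraries, against 3.60, 3.94 and 3.06 CPM in WT libraries. The counts behind these levels were 71, 31 and 78 in Gα13-deficient libraries and 33, 29 and 18 in WT libraries. All Gα13-deficient libraries were higher, yet the log2 fold change of 0.84 ± 0.31 (SE, 95% interval 0.17 to 1.51) did not pass (edgeR adjusted p = 0.103). The neighbour Mgl2, whose product MGL2 is its closest relative and with which it shares sequence, averaged 2.56 ± 1.58 CPM in Gα13-deficient and 1.53 ± 0.196 CPM in WT libraries (SD, n = 3 each, edgeR adjusted p = 0.381).

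DNGR-1, the product of Clec9a, is a receptor for actin filaments exposed by dead cells, best known as a marker of cDC1s and of dendritic cell precursors. Clec9a had 82.8, 43.1 and 77.6 CPM in Gα13-deficient libraries, against 20.8, 64.6 and 18.3 CPM in WT libraries. WT replicate 2 exceeded Gα13-deficient replicate 2, and the other WT libraries lay below every Gα13-deficient library. The log2 fold change was 0.98 ± 0.54 (SE, 95% interval -0.31 to 2.27, edgeR adjusted p = 0.313). Without WT replicate 2 it was 1.80 and passed (adjusted p = 0.0100).

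Clec12a had 36.9, 22.9 and 32.1 CPM in Gα13-deficient libraries, against 14.6, 27.0 and 10.2 CPM in WT libraries, with WT replicate 2 again the highest of its group. The log2 fold change was 0.83 ± 0.37 (SE, 95% interval -0.01 to 1.67, edgeR adjusted p = 0.199). It passed in DESeq2 (0.82, adjusted p = 0.0486) and in edgeR without WT replicate 2 (1.30, adjusted p = 0.0161).

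Clec7a had 47.5, 26.4 and 48.1 CPM in Gα13-deficient libraries, against 19.9, 41.9 and 26.7 CPM in WT libraries, with replicate 2 the lowest in the Gα13-deficient group and the highest in the WT group (log2 fold change 0.48 ± 0.31, edgeR adjusted p = 0.376). Clec4a3 had 69.5, 59.1 and 67.8 CPM in Gα13-deficient libraries, inside the WT range of 36.9 to 71.5 CPM (log2 fold change 0.28 ± 0.35, edgeR adjusted p = 0.677). The ITIM-bearing Clec4a2 had 39.3, 41.7 and 45.1 CPM in Gα13-deficient libraries, against 52.3, 42.9 and 59.1 CPM in WT libraries (log2 fold change -0.29 ± 0.14, edgeR adjusted p = 0.202). Clec4a4 had 127, 118 and 132 CPM in Gα13-deficient libraries, against 170, 137 and 128 CPM in WT libraries (log2 fold change -0.20 ± 0.14, edgeR adjusted p = 0.392). None of these 4 members had groups apart.

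**Figure D3:**
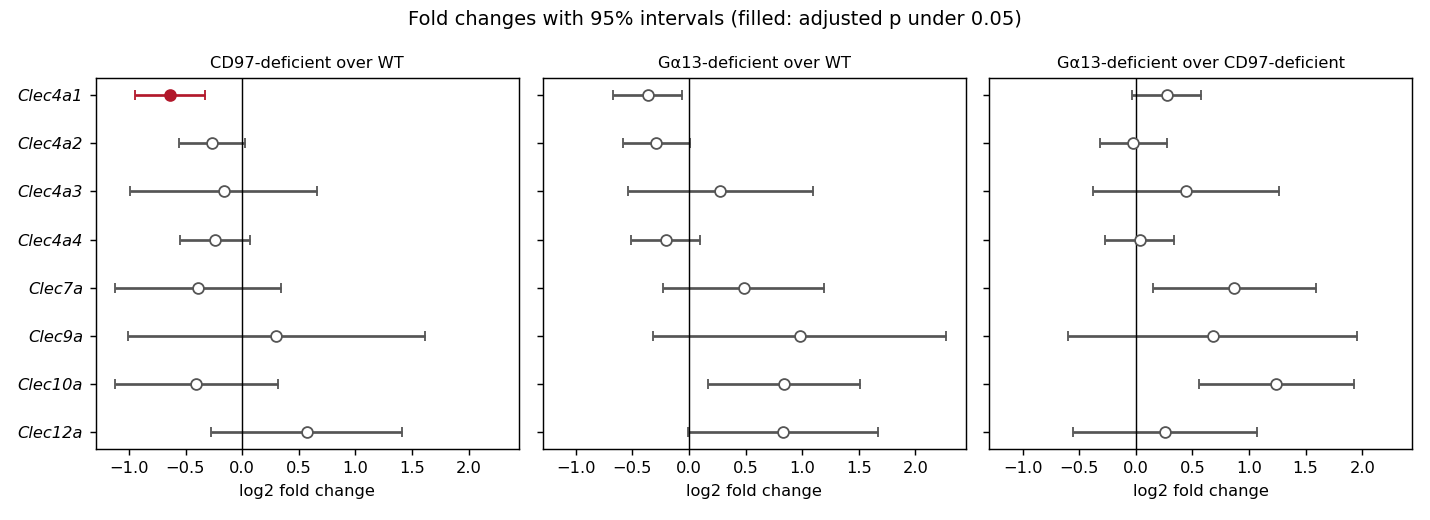
Log2 fold change of each receptor in the 3 comparisons, with the group named first in the numerator. Points are edgeR estimates and whiskers 95% intervals, and a filled point passed an adjusted p of 0.05. The single filled point is Clec4a1 in CD97-deficient over WT libraries, at -0.64.

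Set directly against each other, Gα13-deficient and CD97-deficient cells gave no call among the members. By edgeR's quasi-likelihood test 0 of 8 members passed, where 0.0498% of all tested genes did. At an unadjusted p of 0.05, 2 members passed, Clec10a and Clec7a, where 6% of tested genes did, and DESeq2 called 0. The comparison shares no WT library with its estimate of the difference, but the CD97-deficient and Gα13-deficient libraries are those used against WT above. Groups did not overlap for Clec4a1 and Clec10a, both higher in Gα13-deficient libraries, where 13.1% of all tested genes had groups that did not overlap.

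Clec10a, at 8.06, 5.39 and 5.57 CPM in Gα13-deficient libraries against 2.96, 3.37 and 1.79 CPM in CD97-deficient libraries, had the largest difference of the members (log2 fold change 1.24 ± 0.32, SE, 95% interval 0.56 to 1.93). It ranked 46 of 12043 genes by p (edgeR adjusted p = 0.403). Clec7a, at 47.5, 26.4 and 48.1 CPM in Gα13-deficient libraries against 27.8, 20.95 and 18.5 CPM in CD97-deficient libraries, differed by a log2 fold change of 0.87 ± 0.32 (edgeR adjusted p = 0.745). The groups of Clec7a overlapped only through Gα13-deficient replicate 2. For Clec9a the log2 fold change was 0.68 ± 0.53 (95% interval -0.59 to 1.95, edgeR adjusted p = 0.948). It was 0.44 ± 0.35 for Clec4a3 (95% interval -0.38 to 1.26) and 0.26 ± 0.36 for Clec12a (95% interval -0.56 to 1.07), and neither passed (edgeR adjusted p = 0.948 and 0.964).

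Clec4a1 differed by 0.27 ± 0.14 on the log2 scale between Gα13-deficient and CD97-deficient libraries (95% interval -0.03 to 0.58, edgeR adjusted p = 0.866). Its call against WT in one genotype and not in the other is therefore not shown to be a difference between the genotypes. The intervals of Clec4a2 and Clec4a4 ran from -0.31 to 0.27 and from -0.27 to 0.34.

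Across the 9 libraries the members fell into patterns that did not follow their place on chromosome 6 alone. Likeness was measured as the root mean squared difference of log2 CPM after each gene was centred on its mean, so that a small value means parallel profiles. These values describe 9 libraries that share genotype, depth and any mixture of cells, and carry no test. Clec4a2 and Clec4a4 were closest (0.19), although reads may also be split between them, followed by Clec4a1 and Clec4a4 (0.20). Clec9a and Clec12a were at 0.30, whereas Clec4a3 was nearer to Clec7a (0.35) than to any other member.

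Over all tested genes, the profiles nearest to Clec9a were those of Ccr2 (0.25), Ms4a6d (0.25) and Lyz2 (0.26). Ccr2 encodes the chemokine receptor for CCL2 and Lyz2 encodes lysozyme, both abundant in monocytes and in the cDC2B subset. Ccr2 had 26.3, 22.3 and 23.5 CPM in CD97-deficient libraries, 40.4, 22.9 and 51.8 CPM in Gα13-deficient libraries, and 16.1, 35.6 and 14.3 CPM in WT libraries. Replicates 1 and 3 of the Gα13-deficient group and replicate 2 of the WT group were the high libraries for Ccr2, as for Clec9a.

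The genes nearest to the other members were Shpk, Hnrnph3 and Zfp182 for Clec4a1, at 0.07 to 0.09. They were Dnajc16, Epm2aip1 and Cdadc1 for Clec4a2, and Ythdc1, Rbm12b and Cbl for Clec4a4. Those of Clec4a3 were Cpox, Cnnm2 and Emr4, and those of Clec7a were Plk2, Ccl25 and Ccr9. Those of Clec12a were Prrg1, Tpmt and Dock1, and those of Clec10a were Rapgefl1, Whrn and Rps27.

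**Figure D4:**
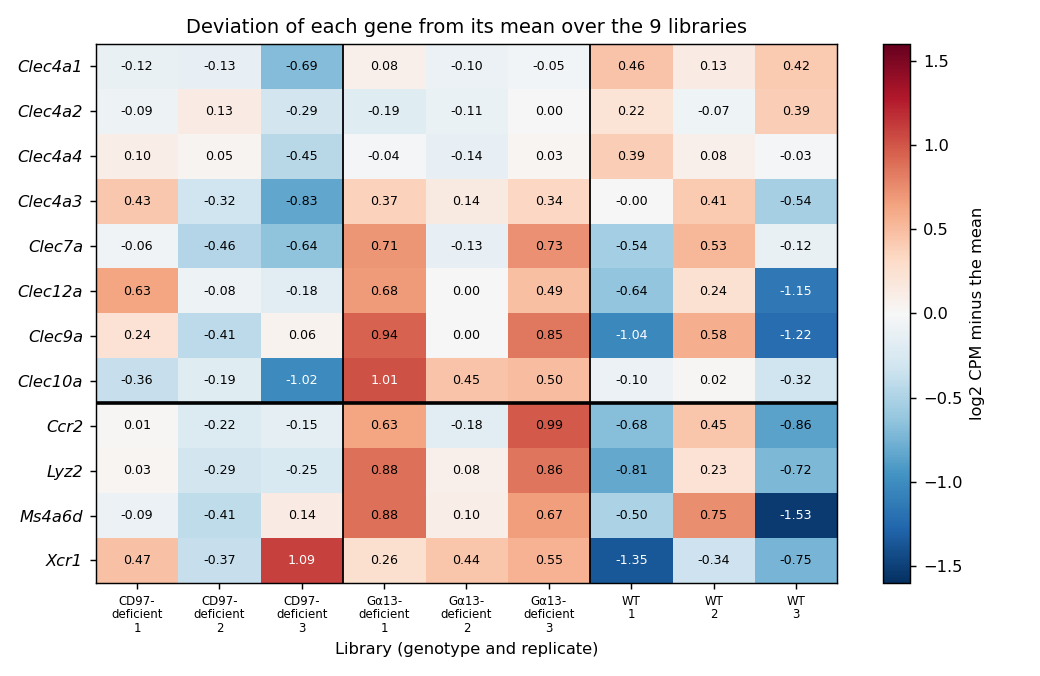
Log2 CPM of each gene minus its mean over the 9 libraries, with members above the line and Ccr2, Lyz2, Ms4a6d and the cDC1 gene Xcr1 below it. Colours run from blue (below the mean) to red (above it). Clec9a, Ccr2, Lyz2 and Ms4a6d are high in Gα13-deficient replicates 1 and 3 and in WT replicate 2. Xcr1 is highest in CD97-deficient replicate 3.

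Levels of markers of other cell types were set beside these members. The summed monocyte markers, all 14 of 14 in the table, ranged from 1090 to 1386 CPM in CD97-deficient, from 1369 to 1934 CPM in Gα13-deficient and from 923 to 1457 CPM in WT libraries, with F13a1 and Chi3l3 at 0 in several libraries. Lyz2 alone averaged 503, 885 and 440 CPM in these groups, so it weighs heavily in the sum. Of the 12 tested genes, 7 and 8 had a positive log2 fold change in CD97-deficient and Gα13-deficient against WT libraries. In edgeR 1 rose in each comparison, where 8.53% and 11% of all tested genes passed. Ccr2 and Lyz2 belong to this list and are also among the 3 genes nearest to Clec9a over these same libraries. A fit with the list's level as a covariate thus removes part of the profile of Clec9a itself. It cannot separate that profile from the content of monocytes. With the mean log2 CPM of its tested genes as a covariate, the Gα13-deficient against WT log2 fold change was 0.00 ± 0.15 for Clec9a and 0.06 ± 0.21 for Clec12a, and in CD97-deficient against WT libraries Clec9a (0.43 ± 0.12) and Clec12a (0.58 ± 0.17) each passed at an edgeR adjusted p of 0.0441. Of the cDC2B markers, Cx3cr1 and S100a4 rose in Gα13-deficient libraries, with the list at 1573 to 2140 CPM against 1084 to 1679 CPM in WT libraries, and its part in the member levels was not tested.

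The cDC1 markers stood beside Clec9a in another way. All 13 of 13 were tested and none was at 0, with sums of 2158 to 2286 CPM in CD97-deficient, 2010 to 2100 CPM in Gα13-deficient and 2048 to 2216 CPM in WT libraries. Wdfy4 alone averaged 1708, 1524 and 1648 CPM in these groups, so the sums mostly follow this gene and say little about the others. Xcr1, the chemokine receptor that defines cDC1s, averaged 15.4 ± 7.42 and 14.4 ± 1.48 CPM in CD97-deficient and Gα13-deficient libraries, against 6.25 ± 2.19 CPM in WT libraries (SD, n = 3 each). Xcr1 and Naaa rose in both deficient genotypes, Tlr11 fell in both, and Batf3 fell in Gα13-deficient libraries. Irf8 averaged 68.9 ± 16.6 CPM in Gα13-deficient against 29.4 ± 12.2 CPM in WT libraries (SD, n = 3 each), called by DESeq2 and not by edgeR. Of the 13 genes, 9 had a positive log2 fold change in CD97-deficient and 7 in Gα13-deficient against WT libraries. With the mean log2 CPM of these markers as a covariate, the same added fit as for Clec4a1, the log2 difference of Clec9a from WT was -0.15 ± 0.41 for CD97-deficient libraries and 0.44 ± 0.42 for Gα13-deficient ones. Summed macrophage markers, 20 of 20 tested with none at 0, ranged from 1063 to 2693, from 1371 to 1568 and from 888 to 2185 CPM in CD97-deficient, Gα13-deficient and WT libraries, and their highest WT library was replicate 2.

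Markers of plasmacytoid dendritic cells, the interferon-producing relatives of cDCs, had the same high libraries as Clec9a. All 12 of 12 were tested and none was at 0. Their sum was 545, 500.2 and 556 CPM in CD97-deficient libraries, 745, 576 and 638 CPM in Gα13-deficient libraries, and 407, 587 and 436 CPM in WT libraries, so replicates 1 and 3 of the Gα13-deficient group and replicate 2 of the WT group were the highest of their groups. In Gα13-deficient against WT libraries all 12 had a positive log2 fold change (median 0.49, against -0.008 for all tested genes). In edgeR 1 passed, where 11% of all tested genes did, and DESeq2 called 3. At an unadjusted p of 0.05 in edgeR 5 passed, where 25.8% of all tested genes did. In Gα13-deficient against CD97-deficient libraries 11 were positive (median 0.68). There 0 passed in edgeR, where 0.0498% of all tested genes did, and DESeq2 called 1. At an unadjusted p of 0.05 the number was 6, where 6% of all tested genes passed. In CD97-deficient against WT libraries 5 were positive. Here 0 passed in edgeR, where 8.53% of all tested genes did, and DESeq2 called 1. At an unadjusted p of 0.05 the number was 2, where 24.5% of all tested genes passed. Ccr9, among the genes nearest to Clec7a, belongs to this list, and the part of these cells in the member levels was not tested.

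Of 39 other C-type lectin receptors listed, 25 were tested. In CD97-deficient against WT libraries 2 fell and 0 rose, where 8.53% of all tested genes passed, and DESeq2 called 6. At an unadjusted p of 0.05 in edgeR 10 passed, where 24.5% of all tested genes did. In Gα13-deficient against WT libraries 4 fell and 2 rose, where 11% of all tested genes passed, and DESeq2 called 8. At an unadjusted p of 0.05 in edgeR 9 passed, where 25.8% of all tested genes did. Their median log2 fold changes were -0.18 and -0.02, with 11 and 12 of 25 positive. Cd209b, which encodes SIGN-R1, a lectin of marginal zone macrophages that belongs to the macrophage list too, had 0.946, 1.32 and 2.23 CPM in CD97-deficient libraries and 4.43, 1.22 and 2.43 CPM in Gα13-deficient libraries, against 14.9, 5.98 and 8.49 CPM in WT libraries. Its log2 fold changes against WT were -2.69 ± 0.48 (edgeR adjusted p = 0.00429) in CD97-deficient and -1.83 ± 0.44 (edgeR adjusted p = 0.0174) in Gα13-deficient libraries. The second call was lost without Gα13-deficient replicate 2 or 3 or WT replicate 1 (edgeR adjusted p up to 0.0868).

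Clec2d, whose product is a ligand of NKR-P1 receptors on natural killer cells, averaged 102 ± 4.29 CPM in CD97-deficient and 90.5 ± 14.97 CPM in Gα13-deficient libraries, against 138 ± 15.3 CPM in WT libraries (SD, n = 3 each). It passed in both (log2 fold changes -0.44 and -0.61, edgeR adjusted p = 0.0336 and 0.00419), and Clec2i of the same family passed in Gα13-deficient libraries (-0.59, edgeR adjusted p = 0.0154). The call of Clec2d in CD97-deficient libraries held in 3 of 9 fits that each left out 1 library, those without Gα13-deficient replicate 1 or 3 or WT replicate 1, and was lost in the others (edgeR adjusted p up to 0.120, without CD97-deficient replicate 3). That of Clec2i was lost without replicate 2 of the Gα13-deficient or of the WT group (edgeR adjusted p up to 0.0743). Ly75, which encodes the endocytic receptor DEC-205, had 35.4, 34.2 and 27.3 CPM in Gα13-deficient libraries, against 58.4, 55.4 and 55.4 CPM in WT libraries. The Ly75 groups did not overlap (log2 fold change -0.81 ± 0.18, edgeR adjusted p = 0.0141), and the call was lost without Gα13-deficient replicate 3 (edgeR adjusted p = 0.0554). Klrk1, which encodes NKG2D and is also in the natural killer cell list, rose in Gα13-deficient libraries (log2 fold change 0.97, edgeR adjusted p = 0.0188) and was named after its value was seen.

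Of the Syk and Card9 pathway that hemITAM receptors use, 24 of 25 listed genes were tested. Syk averaged 380 ± 13.3, 443 ± 61.0 and 456 ± 131 CPM, and Card9 30.2 ± 2.90, 29.7 ± 2.41 and 33.1 ± 1.498 CPM, in CD97-deficient, Gα13-deficient and WT libraries (SD, n = 3 each), and neither passed in any comparison. In CD97-deficient against WT libraries 1 rose (Nfkb1) and 1 fell (Cblb), where 8.53% of all tested genes passed, and in Gα13-deficient against WT libraries 1 rose (Nfkb1) and 3 fell (Cblb, Malt1 and Rel), where 11% did. Nfkb1, which encodes the NF-κB subunit p105/p50, averaged 710 ± 29.7 and 750.3 ± 60.0 CPM in CD97-deficient and Gα13-deficient libraries, against 524 ± 42.3 CPM in WT libraries (SD, n = 3 each), with edgeR adjusted p = 0.00587 and 0.00145. Cblb, which encodes a ubiquitin ligase that restrains Dectin-1 signalling, averaged 140 ± 10.9 and 152 ± 11.9 CPM, against 199 ± 14.7 CPM in WT libraries (edgeR adjusted p = 0.00422 and 0.0154), and its call in Gα13-deficient libraries was lost without their replicate 3 (edgeR adjusted p = 0.0597).

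Malt1, the protease partner of Card9 and Bcl10, had a log2 fold change of -0.46 ± 0.12 in Gα13-deficient against WT libraries (edgeR adjusted p = 0.0319), and the NF-κB subunit gene Rel one of -0.38 ± 0.11 (edgeR adjusted p = 0.0410). In CD97-deficient against WT libraries Malt1 and Rel had log2 fold changes of -0.41 and -0.31 that did not pass (edgeR adjusted p = 0.0615 and 0.0938). In Gα13-deficient against WT libraries each call held in 4 of 9 fits that left out 1 library. That of Malt1 was lost without CD97-deficient replicate 2, any Gα13-deficient replicate or WT replicate 1 (edgeR adjusted p up to 0.127), and that of Rel without CD97-deficient replicate 1 or 3, Gα13-deficient replicate 2 or 3 or WT replicate 1 (edgeR adjusted p up to 0.148).

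Of the phosphatases and adaptors that bind an ITIM, 8 of 9 listed genes were tested. In CD97-deficient against WT libraries 0 passed in edgeR, where 8.53% of all tested genes did, and DESeq2 called 0. At an unadjusted p of 0.05 in edgeR the number was 0, where 24.5% of all tested genes passed. In Gα13-deficient against WT libraries 1 of the 8 rose, where 11% of all tested genes passed: Ptpn6, which encodes the phosphatase SHP-1. It had 592, 629 and 586 CPM in Gα13-deficient libraries, against 561, 444 and 460 CPM in WT libraries, and the groups did not overlap (log2 fold change 0.30 ± 0.09, edgeR adjusted p = 0.0394). Its call held in 1 of 9 fits that each left out 1 library, the one without WT replicate 1, and was lost in the others, with the highest edgeR adjusted p (0.153) without Gα13-deficient replicate 2.

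Among 15 tested inhibitory receptors of other families 2 passed in CD97-deficient and 1 in Gα13-deficient against WT libraries, where 8.53% and 11% of all tested genes did. Lilrb3, the row found for the inhibitory receptor PIR-B, fell in both deficient genotypes. It averaged 367 ± 8.21 and 352 ± 31.0 CPM in CD97-deficient and Gα13-deficient libraries, against 451 ± 38.8 CPM in WT libraries (SD, n = 3 each), with edgeR adjusted p = 0.0445 and 0.0148. The call in CD97-deficient libraries held in 2 of 9 fits that each left out 1 library, those without Gα13-deficient replicate 3 or WT replicate 2, and was lost in the others (edgeR adjusted p up to 0.159), and that in Gα13-deficient libraries was lost without their replicate 2 or 3 or WT replicate 1 (edgeR adjusted p up to 0.0613). Cd300lf, an inhibitory receptor for lipids, fell in CD97-deficient libraries (log2 fold change -0.48 ± 0.13, edgeR adjusted p = 0.0407), in a call that held in 2 of 9 such fits, those without CD97-deficient replicate 2 or WT replicate 2 (edgeR adjusted p up to 0.162 in the others). In Gα13-deficient libraries its log2 fold change was -0.40 ± 0.13 (edgeR adjusted p = 0.0699, called by DESeq2), and between the deficient genotypes it was 0.08 ± 0.13 (edgeR adjusted p = 0.971). No gene of these 4 lists passed between Gα13-deficient and CD97-deficient libraries in edgeR, where 0.0498% of all tested genes did, and DESeq2 called 1. At an unadjusted p of 0.05 in edgeR 6 genes of the lists passed, where 6% of all tested genes did.

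Promoter sequence was examined for the 6 members with a RefSeq entry (GRCm38.p6, from 250 bases before the start to 50 after it). Of 6 motifs searched on both strands, the composite ETS-IRF element, GGAA and GAAA separated by 2 bases and known to be bound by PU.1 with IRF4 or IRF8 in myeloid and dendritic cells, was in the promoters of Clec4a1, the member that passed the test, and Clec7a, and in 2.72% of all 32851 promoters. The stretches are shown for these members on the strand of the gene, with the element in capitals as it reads in reverse complement, TTTC and TTCC separated by 2 bases.
Clec4a1, plus strand, chr6:122921598-122921693: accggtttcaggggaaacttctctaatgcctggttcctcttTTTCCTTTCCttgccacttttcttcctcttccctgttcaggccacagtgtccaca
Clec7a, minus strand, chr6:129472791-129472890: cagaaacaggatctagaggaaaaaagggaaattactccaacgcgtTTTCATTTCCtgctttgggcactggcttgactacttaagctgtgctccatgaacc

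The element lay 209 to 200 bases before the start of Clec4a1. In Clec7a it lay 66 to 57 bases before the more downstream start and 60 to 51 bases before the more upstream start. The shorter purine motif GAGGAA was in the promoters of Clec4a1, Clec4a3, Clec7a and Clec12a and in 28.3% of all promoters, and TATAAA was in those of Clec4a2, Clec7a and Clec9a and in 13.6% of all. GAGGAA followed by GT, AGGAAG followed by TG, and GAAA repeated after 2 bases were in 3.2%, 4.07% and 3.44% of promoters and had no match in the 6. The motifs overlap in sequence, and a match describes the letters only.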

How the data were processed

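Total RNA of splenic cDC2s was sequenced in 9 libraries, 3 per genotype. The values used are whole-number counts per gene symbol, which the authors deposited as 1 table. STAR, HTSeq, DESeq2 and the mm10 build are named in the submitters' processing notes, without versions. Strand use and the sort are not given in the sources used here. The table held 14209 genes, none with a total under 10, so genes with fewer reads are missing from it, and WT columns were matched to samples by name.

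From these counts, edgeR 4.0.16 in R 4.3.3 fitted all 9 libraries together (filterByExpr, TMM scaling, robust quasi-likelihood F-test), and 12043 genes were tested with Benjamini-Hochberg adjustment and a threshold of 0.05. The biological coefficient of variation was 0.15, and 3 libraries a group limit the precision. With changes simulated for CD97-deficient against WT in 12039 genes, the fit recovered 29 of 80 changes of 1.5-fold, 41 of 55 of 2-fold and 58 of 65 of 4-fold, and called 7 unchanged genes. Alternatives were DESeq2 1.42.0, other scalings, no filter, the 2 groups alone, a replicate block, covariates for marker levels (the mean log2 CPM of a list) and sex-linked pattern, and leaving out each library.

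Libraries with the same number in the Gα13-deficient and WT groups deviated weakly together from their group means (r = 0.18, 0.13 and 0.11). In both groups replicate 2 had the female and replicates 1 and 3 the male sex-linked pattern, whose part in these correlations was not tested. The main fit treats no libraries as pairs, and the replicate block is only an alternative. No pair of libraries was a duplicate. Lengths and positions came from GENCODE mouse release 21 (12797 symbols matched directly, 1219 through a synonym and 193 not at all). The 3 genes with the most similar centred log2 CPM (prior count 2) were named for each member, and from each of 4 pathway lists up to 4 genes that passed against WT, by smallest p. The members and lists were chosen with earlier results of these data known. Some genes of the lists are not reported here by name.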

Additional observations from a re-analysis of the deposited data

How the results depend on the processing

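The fall of Clec4a1 in CD97-deficient libraries kept its direction in every alternative run and its call in 7 of 9 fits that left out 1 library. Members called against WT in CD97-deficient libraries numbered 0 with the replicate block, 0 with the sex-linked pattern, 0 with the cDC1 level, 3 with the monocyte level and 0 to 2 without single libraries. In Gα13-deficient libraries they numbered 1 by DESeq2, 1 with the replicate block and 0 to 2 without single libraries, and between Gα13-deficient and CD97-deficient libraries 1 with the block (Clec9a, log2 fold change 0.64, adjusted p = 0.040). Counts over all genes with the block or the monocyte level are not given here for CD97-deficient against WT libraries. Nor are those by DESeq2 or with the block for Gα13-deficient against WT libraries. Members called in those fits therefore cannot be set against a share of all genes. Over all genes, 1027 were called in CD97-deficient against WT libraries, 222 with the sex-linked pattern, 605 with the macrophage level, 354 with the cDC1 level and 364 to 1271 without single libraries. In Gα13-deficient against WT libraries 1322 were called, 316 with the monocyte level, 453 with the cDC1 level and 693 to 1459 without single libraries. Between Gα13-deficient and CD97-deficient libraries 6 were called, 11 without the filter, 55 by DESeq2, 53 in the 2 groups alone, 73 with the block, 17 with the macrophage level, 12 with the cDC1 level and 4 to 25 without single libraries. Scaling by library totals changed the split of higher and lower genes to 774 and 331 (main 583 and 444) in CD97-deficient and 861 and 523 (main 691 and 631) in Gα13-deficient libraries.

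The replicate numbers did not pair CD97-deficient with WT libraries (r = 0.06, -0.30 and 0.06) or Gα13-deficient with CD97-deficient libraries (r = 0.01, -0.04 and -0.07). With the block Clec4a1 had a log2 fold change of -0.65 in CD97-deficient against WT libraries (adjusted p = 0.0658).

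None of the log2 fold changes that reversed had passed. With the monocyte level they were -0.24 for Clec4a3, -0.18 for Clec7a and 0.24 for Cd97 in Gα13-deficient against WT libraries, and 0.19 for Clec4a2, -0.038 for Clec4a3, -0.43 for Clec9a, -0.52 for Clec12a and 0.00033 for Malt1 in Gα13-deficient against CD97-deficient libraries. With the cDC1 level they were -0.15 for Clec9a in CD97-deficient and 0.32 for Cd97 in Gα13-deficient against WT libraries, and 0.026 for Clec4a2 between the deficient groups. With the sex-linked pattern they were -0.054 for Clec4a4, -0.056 for Cd209b and -0.037 for Cd300lf between the deficient groups. Leaving out single libraries gave -0.58 to 0.091 for Clec4a3 in CD97-deficient and -0.31 to 0.04 for Cd97 in Gα13-deficient against WT libraries. Between the deficient groups it gave -0.12 to 0.10 for Clec4a2, -0.12 to 0.13 for Clec4a4, -0.17 to 0.015 for Rel and -0.12 to 0.0093 for Lilrb3. The causes were not tested. At 16 to 78 counts a library, Clec10a is limited by depth.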
